A study of Mus musculus with 15 samples.

Results

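The SWI/SNF or BAF complexes are remodelling machines that use ATP to slide and evict nucleosomes. The 31 genes described here encode their subunits, were chosen by name from the GENCODE M21 symbols of the counted genes, and are 31 of the 55536 genes counted. Of the 31, 30 passed the filter on low counts and were tested, and *Actl6b* did not. A member with low counts elsewhere could pass that filter through the group where it was high, so the counts of members below describe the list and support nothing by themselves.

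All BAF complexes share a catalytic module built on *Smarca4* (BRG1) or *Smarca2* (BRM) and a core of scaffold subunits. Canonical BAF adds an ARID1 protein and a DPF protein, PBAF adds ARID2, PBRM1, BRD7 and PHF10, and non-canonical BAF adds BRD9 with BICRA or BICRAL and lacks SMARCB1. In mouse embryonic stem cells a form with BRG1, BAF155 and BAF60A is needed for self-renewal, while neurons exchange several subunits for paralogues such as BAF53B, BAF45B and CREST.

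Messenger RNA was measured by RNA-seq while mouse stem cells were turned into primordial germ cell-like cells (PGCLCs) by induced transcription factors. There were 15 samples in 5 groups of 3. Every group carried *Nanog*, *Prdm1*, *Prdm14* and *Tfap2c* as transgenes under doxycycline control. Whether the replicates of a group are separate cultures is not given in the sources used here, so the p-values measure the spread between these samples only.

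Naive ESCs were grown with PD0325901, CHIR99021 and LIF on poly-L-ornithine and laminin. Epiblast-like cells (EpiLCs) were made from them in 48 h with Activin A, bFGF and knockout serum replacement on fibronectin. PGCLCs were aggregates of EpiLCs in GK15 medium with doxycycline, taken as Stella-eGFP+ cells on days 2, 4 and 6 and called D2PGCLCs, D4PGCLCs and D6PGCLCs. Reads from a transgene and from its endogenous gene are counted together. Median depth per sample was 27453967 counts in ESCs (22555021 to 29790085), 29112257 in EpiLCs (27839735 to 32594579), 33433779 in D2PGCLCs (28907803 to 34808685), 33311717 in D4PGCLCs (32146690 to 34245229) and 34476646 in D6PGCLCs (32530096 to 42725681).

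One library stands apart from the rest. D6PGCLC replicate 1 had 529 genes with 1 to 3 counts, against 3338 to 4606 such genes in the 14 other samples, and 18061 genes with any count against 21103 to 24343. *Bcl11a* and *Bcl11b* had 0 counts in that library and up to 26 and 41 in the other D6PGCLC samples. The counts of called genes and the called changes printed for subunit genes that use D6PGCLCs are therefore given with and without it, except for steps from day 4. Marker sums and most shares are given for each sample of day 6, that library first.

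Levels are TMM-normalized CPM, counts scaled to the size of each library, and levels of different subunit genes are compared only after division by exon length, as CPM per kb. Marker genes are summed, and the highest of a list by group mean is named, in CPM without that division. The 7 naive ESC markers summed to 2430, 2448 and 2453 CPM in the ESC samples and 393, 397 and 394 in the EpiLC samples, with *Tfcp2l1* the highest in ESCs. The 5 EpiLC markers summed to 2815, 3041 and 3046 CPM in EpiLCs and 214, 214 and 218 in ESCs, where *Fgf5* had at most 3 counts in every sample. The 8 PGCLC markers summed to 139, 135 and 132 CPM in ESCs and 1343, 1264 and 1430 in D6PGCLCs, with *Dppa3* the highest by mean and *Dazl* above it in D6PGCLC replicate 1. This list is no independent check of the label, since *Dppa3* is *Stella*, the gene whose reporter was used to sort the PGCLCs, and *Prdm1* and *Tfap2c* are transgenes. Naive markers were still at 1217, 1274 and 1121 CPM in D6PGCLCs.

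Markers of other cell types moved between groups too. The 7 fibroblast genes summed to 7.77, 7.71 and 8.41 CPM in ESCs, 25.1, 24 and 24.7 in EpiLCs and, on day 6, 1.6, 2.05 and 1.47, with *Thy1* the highest in ESCs and EpiLCs. From ESCs to EpiLCs 6 of the 7 had a higher mean, from ESCs to D6PGCLCs 3 a higher and 3 a lower one, and *Lum* had at most 3 counts in every EpiLC sample. The 5 endoderm and trophoblast genes summed to 22.2, 25.8 and 27.7 CPM in ESCs, 9.14, 9.77 and 9.25 in EpiLCs and, on day 6, 26.1, 24.4 and 24.4, with *Eomes* the highest by mean. In both EpiLCs and D6PGCLCs 2 of the 5 had a higher and 3 a lower mean than in ESCs. *Gata6* was at 0.11, 0.263 and 0.57 CPM in ESCs and 14.1, 5.66 and 7.99 in D6PGCLCs, and *Eomes* at 19.4, 22.6 and 23.2 and 10.8, 17.3 and 14.5. The 4 neural progenitor genes summed to 82.1, 75.8 and 87.5 CPM in ESCs and 40.5, 38.1 and 45.4 in D6PGCLCs, most of it *Nes*, and 2 of the 4 had a higher and 2 a lower mean there than in ESCs. PGCLCs were sorted by flow cytometry as live eGFP+ cells, and no sort is described for ESCs and EpiLCs. In bulk RNA, fewer cells of a type and less RNA per cell cannot be told apart, and the part of these cells in the results below was not tested.

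Per kb of exon, the subunit genes spanned a wide range of levels. *Actb*, the actin of the catalytic module, led in ESCs with 807 ± 29.1 CPM per kb (SD, n = 3), but reads of *Actb* and its near-identical relative *Actg1* are hard to assign, so its level is uncertain. The next were *Actl6a*, an actin-related partner of the ATPase, at 75.2 ± 4.63 CPM per kb, the scaffold gene *Smarcc1* (BAF155) at 55.3 ± 1.15 and *Smarca4* at 50.3 ± 0.995. In D6PGCLCs the same 4 genes led, with *Smarcc1* at 47.9 ± 2.3 CPM per kb, *Actl6a* at 46.4 ± 2.84 and *Smarca4* at 43.1 ± 3.21. There, the means of *Smarcc1* and *Actl6a* differed by less than their SD. At the other end stood *Actl6b*, *Bcl11a* and *Bcl11b* in both groups.

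*Actl6b* encodes BAF53B, the neuronal counterpart of *Actl6a*. Its counts were 0 in all ESC and D2PGCLC samples, at most 1 in EpiLCs and D4PGCLCs, and 6 in D6PGCLC replicate 2. With 3 counts equal to 0.0702 to 0.133 CPM per sample, no level of *Actl6b* above that floor was detectable outside that library. Summed over the 30 subunit genes other than *Actb*, the level was 455.9 ± 1.38 CPM per kb (SD, n = 3 here and in what follows) for ESCs and 512.3 ± 10.7 for EpiLCs, then 501.6 ± 14.9 on day 2, 453.4 ± 15.5 on day 4 and 408.1 ± 11.4 on day 6. The EpiLC and D2PGCLC samples were all above the ESC samples in this sum, and the D6PGCLC samples were all below them. The sum was taken with TMM only, whose factors were 0.9988, 1.012 and 1.002 in ESCs and 1.104, 1.064 and 1.085 in D6PGCLCs. Its dependence on that scaling was not tested.

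**Figure D1:**
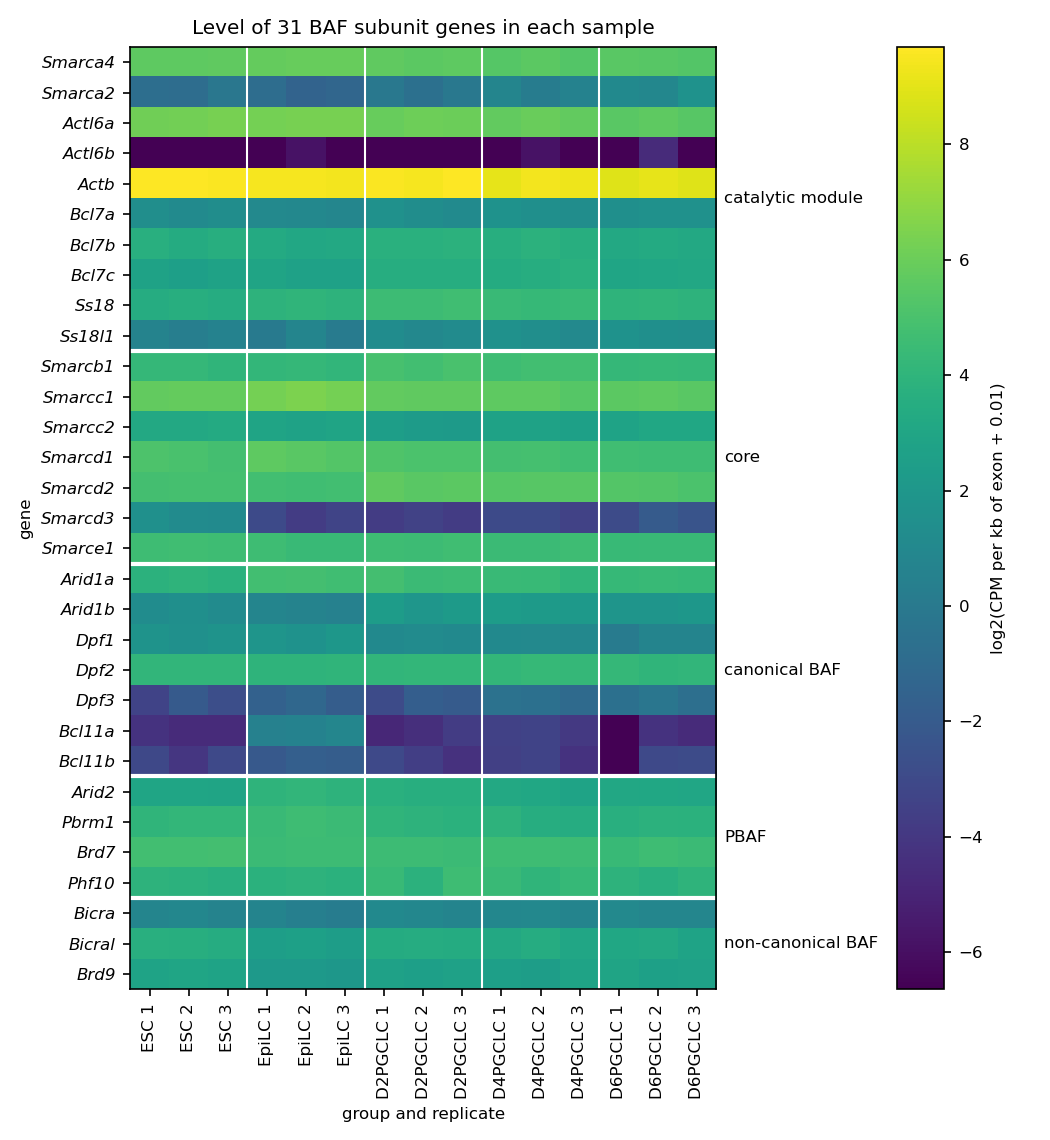
Each cell shows log2 of the level of 1 subunit gene in 1 sample, as CPM per kb of exon plus 0.01, with genes grouped by complex and samples by group. *Actb*, at 807 ± 29.1 CPM per kb in ESCs, is the brightest line, and *Bcl11a* is bright only in the 3 EpiLC samples, at 1.56 ± 0.195 CPM per kb.

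The 4 comparisons follow the order of induction, and each shares samples with others. SE is the standard error of a log2 fold change. A gene passed the test at an adjusted p under 0.05, and was past the cutoffs when its log2 fold change also exceeded 1 in size. From ESCs to EpiLCs, 9 of the 30 tested members were higher, against 26.3% of all genes tested, and 10 were lower, against 26.2%. Past the cutoffs were 5 members, *Smarcd3*, *Arid2*, *Dpf3*, *Bcl11a* and *Bicral*, against 26.2% of all genes. The median log2 fold change of the members was -0.067 and their median size 0.38, against -0.0065 and 0.56 over all genes. Leaving out 1 sample in turn put the members' median between -0.087 (without ESC replicate 3) and -0.022 (without EpiLC replicate 1), and library size only put it at -0.17 (-0.11 over all genes). With library size only in place of TMM, 8 members were higher (22.8% of all genes in that fit), 14 lower (30.7%) and 4 past the cutoffs (26.8%). Without EpiLC replicate 2, 3 members were past the cutoffs (24.2% of all genes in that fit), and without EpiLC replicate 3, 6 were lower (22.1%).

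From EpiLCs to D2PGCLCs, 13 members were higher (27.2% of all genes) and 10 lower (26% of all genes). Only *Arid1b*, *Bcl11a* and *Bcl11b* were past the cutoffs, 3 of 30 members against 25.4% of all genes. *Bcl11b* lost its call in 6 of 12 alternatives. The members had a median log2 fold change of 0.12 and a median size of 0.53, against 0.0033 and 0.58. By class, 6 were higher and 2 lower of the 9 tested genes of the catalytic module, 2 and 3 of the 7 core genes, 1 and 3 of the 7 of canonical BAF, 1 and 2 of the 4 of PBAF, and 3 of the 3 of non-canonical BAF were higher, where *Bicra* lost its call in 2 of 12 alternatives.

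Between D2PGCLCs and D6PGCLCs, 4 members were higher (19.5% of all genes) and 15 lower (18.2% of all genes), with a median log2 fold change of -0.25 against 0.0 over all genes. *Smarca2*, *Smarcd3* and *Dpf3* were past the cutoffs, 3 members against 13.6% of all genes. The median size of change was 0.42 in the members and 0.40 in all genes. The members' median was -0.22 without D6PGCLC replicate 1 (0.025 over all genes) and -0.0845 with library size only (0.16 over all genes). Without D6PGCLC replicate 1, 4 members were higher (17.9% of all genes in that fit), 13 lower (14.4%) and 3 past the cutoffs (12.8%), and with library size only 6 were higher (27.2%), 10 lower (9.65%) and 3 past the cutoffs (15.2%).

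Over the whole course, from ESCs to D6PGCLCs, 8 members were higher (27.7% of all genes) and 13 lower (26% of all genes). Past the cutoffs were *Smarca2*, *Smarcd3*, *Dpf1*, *Dpf3* and *Ss18l1*, 5 members against 26.2% of all genes. The median log2 fold change was -0.16 and the median size 0.35, against -0.0022 and 0.58. The members' median was -0.0014 without D6PGCLC replicate 1 (0.022 over all genes) and -0.051 with library size only (0.11 over all genes). Without D6PGCLC replicate 1, 8 members were higher (27.2% of all genes in that fit), 9 lower (22.3%) and 3 past the cutoffs (25.5%), since *Dpf1* (log2 fold change -0.92) and *Ss18l1* (0.94) then passed the test below the fold cutoff. The scaffold genes *Smarcc1*, *Smarcc2* and *Smarce1* and the catalytic module gene *Bcl7b* no longer passed without it, with adjusted p-values of 0.123, 0.226, 0.0665 and 0.0774. Their log2 fold changes were then -0.18, -0.15, -0.19 and -0.26, against -0.21, -0.24, -0.23 and -0.31 with it. With library size only, which moves the median log2 fold change of all genes by 0.11, 10 members were higher (32.3% of all genes in that fit) and 8 lower (21%). With no filter on low counts 8 were higher (16%) and 8 lower (14.2%).

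**Figure D2:**
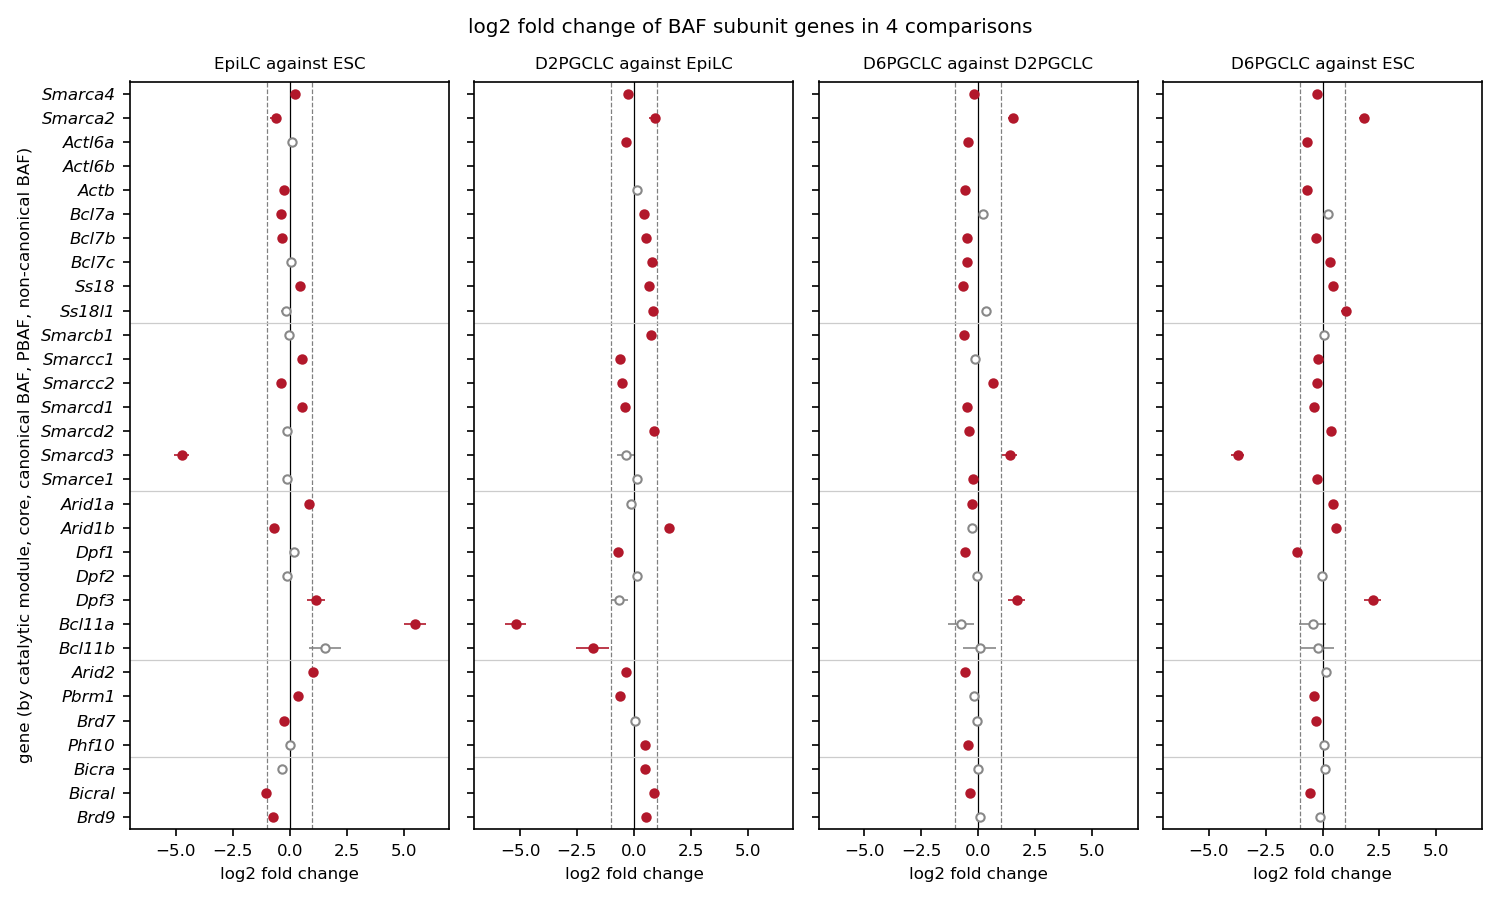
The log2 fold change of each tested subunit gene is drawn in 4 comparisons, with bars for the standard error, filled red points for an adjusted p under 0.05, open grey points for the others and dashed lines at the fold cutoff. *Bcl11a* has the highest value in EpiLCs against ESCs, at 5.50, and *Smarcd3* the lowest, at -4.74.

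The catalytic module holds the ATPases. *Smarca4* (ENSMUSG00000032187, chromosome 9 from 21616169 to 21704230) had 327, 319 and 332 CPM in the 3 ESC samples and 375, 383 and 379.5 CPM in the 3 EpiLC samples, then 331, 310.1 and 316 CPM on day 2, 274, 304 and 263 on day 4 and 298, 282 and 257 on day 6. EpiLC samples were the highest and did not overlap with ESCs, and the D6PGCLC samples were all below the ESC samples. Tested across all genes, its log2 fold change was 0.22 (SE 0.07, adjusted p = 0.0182) from ESCs to EpiLCs, -0.25 (SE 0.07, adjusted p = 0.00794) from EpiLCs to D2PGCLCs and -0.22 (SE 0.07, adjusted p = 0.0155) from ESCs to D6PGCLCs, the last -0.26 (adjusted p = 0.0157) without D6PGCLC replicate 1. Between D2PGCLCs and D6PGCLCs it was -0.19 (SE 0.07, adjusted p = 0.0467), and -0.24 (adjusted p = 0.0348) without that replicate. The change from EpiLCs to D2PGCLCs kept its call in all 12 alternatives, with adjusted p-values of 0.000243 to 0.0435. The changes from ESCs to EpiLCs, from ESCs to D6PGCLCs and from D2PGCLCs to D6PGCLCs lost the call in 4, 4 and 9 of the 12, and with scaling by library size only they were 0.12 (adjusted p = 0.185), -0.11 (adjusted p = 0.2) and -0.027 (adjusted p = 0.805).

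*Smarca2* (ENSMUSG00000024921, chromosome 19 from 26605050 to 26778322) encodes BRM, the alternative ATPase. It had 8.36, 7.85 and 12.8 CPM in the 3 ESC samples and 7.88, 5.2 and 5.95 CPM in the 3 EpiLC samples, then 13.4, 9.24 and 13 CPM on day 2, 24.4, 16.5 and 21.6 on day 4 and 31.1, 26.3 and 45.8 on day 6. The D4PGCLC and D6PGCLC samples were all above every ESC, EpiLC and D2PGCLC sample, and the D6PGCLC samples were all above the D4PGCLC samples. On the log2 scale, the change was 0.91 (SE 0.24, adjusted p = 0.00338) from EpiLCs to D2PGCLCs, 1.53 (SE 0.23, adjusted p = 4.43e-05) from D2PGCLCs to D6PGCLCs and 1.82 (SE 0.23, adjusted p = 2.47e-06) from ESCs to D6PGCLCs. Without D6PGCLC replicate 1 the change from D2PGCLCs to D6PGCLCs was 1.60 (adjusted p = 9.53e-05) and that from ESCs 1.91 (adjusted p = 5e-06). The rise ran through both steps, with 0.81 (adjusted p = 0.0261) from day 2 to day 4 and 0.72 (adjusted p = 0.0384) from day 4 to day 6. ESC and EpiLC samples overlapped, and the lower EpiLC level, -0.62 (SE 0.24, adjusted p = 0.0381), was no longer called without ESC replicate 3 (-0.35, adjusted p = 0.27), EpiLC replicate 2 (-0.48, adjusted p = 0.159) or EpiLC replicate 3 (-0.56, adjusted p = 0.11).

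*Ss18l1* (ENSMUSG00000039086, chromosome 2 from 180042509 to 180070201) encodes CREST, the paralogue of SS18 that neuronal BAF uses. Its levels were 6.9, 5.44 and 6.5 CPM in the 3 ESC samples and 4.36, 7.33 and 4.88 CPM in the 3 EpiLC samples, then 10.7, 8.67 and 10.2 CPM on day 2, 13.1, 11.5 and 9.11 on day 4 and 14.2, 12.2 and 11.7 on day 6. The 3 D6PGCLC samples lay above all ESC and EpiLC samples, and the ESC and EpiLC samples overlapped. The log2 fold change was 0.83 (SE 0.19, adjusted p = 0.00134) from EpiLCs to D2PGCLCs and 1.01 (SE 0.19, adjusted p = 0.000208) from ESCs to D6PGCLCs. The 11 neuronal genes summed to 344, 345 and 348 CPM in ESCs, 226, 210.1 and 208 in EpiLCs, 126, 117 and 146 in D2PGCLCs and 57.5, 77.1 and 67.6 in D6PGCLCs. *Stmn2* was the highest of them in ESCs and EpiLCs and *Tubb3* in D6PGCLCs, where *Dcx* had at most 3 counts in every sample. From ESCs to EpiLCs 8 of the 11 had a higher mean although the sum was lower, and from ESCs to D6PGCLCs 3 had a higher and 7 a lower mean. Their part in the *Ss18l1* level was not tested.

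*Actl6a*, *Actb*, *Ss18*, *Bcl7a*, *Bcl7b* and *Bcl7c*, which encode partners of the ATPase, stayed below the fold cutoff in the 4 comparisons. Among the changes that passed the test there, the largest were 0.77 for *Bcl7c* and 0.65 for *Ss18*, both from EpiLCs to D2PGCLCs, -0.65 for *Ss18* from D2PGCLCs to D6PGCLCs (-0.64 without D6PGCLC replicate 1), and -0.70 for *Actl6a* and -0.68 for *Actb*, both from ESCs to D6PGCLCs, where the last 2 were -0.68 and -0.64 without D6PGCLC replicate 1. Between ESCs and D2PGCLCs, which is outside the 4 comparisons, *Ss18* rose by 1.09 (SE 0.08, adjusted p = 8.25e-10) on the log2 scale. That change was singled out after its values were seen, and the alternatives were not run for it. Opposite-strand exons of *Mrpl47* cover 11.6% of the *Actl6a* exon bases.

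The core scaffold includes *Smarcb1* (ENSMUSG00000000902, chromosome 10 from 75896769 to 75921617), the SNF5 subunit that contacts the nucleosome face. It had 149, 152 and 131 CPM in the 3 ESC samples and 144, 146 and 136 CPM in the 3 EpiLC samples, then 246, 211 and 248 CPM on day 2, 197, 208 and 210.0 on day 4 and 150.3, 153 and 148 on day 6. Every D2PGCLC and D4PGCLC sample was above every ESC and EpiLC sample, and ESCs overlapped with D6PGCLCs. Tested across all genes, its log2 fold change was 0.73 (SE 0.08, adjusted p = 3.03e-07) from EpiLCs to D2PGCLCs, -0.64 (SE 0.08, adjusted p = 5.47e-06) from D2PGCLCs to D6PGCLCs and 0.06 (SE 0.08, adjusted p = 0.524) from ESCs to D6PGCLCs, the last not past the test. Without D6PGCLC replicate 1, the change from D2PGCLCs to D6PGCLCs was -0.64 (adjusted p = 5.29e-05).

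*Smarcd3* (ENSMUSG00000028949, chromosome 5 from 24590818 to 24624411) encodes BAF60C, the BAF60 form known from heart and muscle. It had 14.7, 11.8 and 11.5 CPM in the 3 ESC samples and 0.612, 0.329 and 0.477 CPM in the 3 EpiLC samples, then 0.337, 0.43 and 0.33 CPM on day 2, 0.606, 0.603 and 0.43 on day 4 and 0.631, 1.3 and 0.907 on day 6. The ESC samples, with 269 to 402 counts, were far above all others, and the EpiLC samples had 10 to 16 counts. On the log2 scale, the change was -4.74 (SE 0.32, adjusted p = 4.05e-10) from ESCs to EpiLCs and -3.73 (SE 0.29, adjusted p = 3.34e-09) from ESCs to D6PGCLCs, the latter -3.49 (adjusted p = 1.49e-08) without D6PGCLC replicate 1. From D2PGCLCs to D6PGCLCs it was 1.38 (SE 0.33, adjusted p = 0.00313), with no overlap of samples, and 1.61 (adjusted p = 0.000961) without D6PGCLC replicate 1. A fit of these 2 groups alone gave the same log2 fold change, 1.38, with an adjusted p of 0.0601.

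Exons of *Chpf2* on the opposite strand cover 48.2% of the *Smarcd3* exon bases. *Chpf2* had 114 to 203 counts in EpiLCs, 148 to 301 in D2PGCLCs and 279 to 383 in D6PGCLCs. The mean level of *Chpf2* was 7.56 CPM in ESCs, 5.56 in EpiLCs, 7.58 on day 2, 7.48 on day 4 and 8.19 on day 6. Whether counting used the strand is not given in the sources used here, and the part of *Chpf2* reads in the low *Smarcd3* counts was not tested. The 7 cardiac and muscle genes summed to 15.4, 15 and 15 CPM in ESCs and 30.0, 29.8 and 29.4 in EpiLCs. On day 2 they summed to 9.5, 8.99 and 7.95, and on day 6 to 9.98, 10.6 and 6.58. *Myl7* was the highest in ESCs and *Myh6* in EpiLCs and D6PGCLCs, and *Actc1* had at most 3 counts in every ESC sample. From ESCs to EpiLCs 4 of the 7 had a higher and 3 a lower mean, and from ESCs to D6PGCLCs 3 a higher and 4 a lower one. Between D2PGCLCs and D6PGCLCs 5 of the 7 had a higher and 2 a lower mean on day 6. Their part in the *Smarcd3* level was not tested.

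The RefSeq promoter sequence of *Smarcd3* is shown because of the size of its change. It is 1 of the 4 genes that ranked first by the largest called change of each gene. The choice was made after the values were seen. The 240 bases at chr5:24602013-24602252 of GRCm38.p6, on the minus strand and ending 10 bases before the RefSeq start, lie inside the gene between annotated exons and hold 38 CpG. Capitals mark the GC box GGGCGG on either strand, present 2 times, with the matches overlapping.
Smarcd3: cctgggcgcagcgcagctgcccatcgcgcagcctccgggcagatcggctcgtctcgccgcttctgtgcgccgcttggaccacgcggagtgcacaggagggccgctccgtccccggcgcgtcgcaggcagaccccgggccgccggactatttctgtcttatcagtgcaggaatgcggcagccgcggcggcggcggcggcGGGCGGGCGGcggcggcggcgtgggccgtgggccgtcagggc

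Among the other core genes, the changes were below the fold cutoff in the 4 comparisons. *Smarcc1* and *Smarcc2* encode BAF155 and BAF170, which pair in the scaffold, *Smarcd1* and *Smarcd2* encode BAF60A and BAF60B, and *Smarce1* encodes BAF57. *Smarcc1* had log2 fold changes of 0.55 from ESCs to EpiLCs and -0.62 from EpiLCs to D2PGCLCs. Those of *Smarcc2* were -0.39 (SE 0.09, adjusted p = 0.00161) and -0.51 (SE 0.09, adjusted p = 0.00017), then 0.66 (SE 0.09, adjusted p = 2.91e-05) from D2PGCLCs to D6PGCLCs, the last 0.74 (adjusted p = 1.96e-05) without D6PGCLC replicate 1. *Smarcd2*, singled out after its values were seen, rose by 0.87 on the log2 scale from EpiLCs to D2PGCLCs (adjusted p = 2.04e-08).

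Canonical BAF is defined by ARID1A or ARID1B, large DNA-binding subunits that exclude each other. *Arid1a* (ENSMUSG00000007880, chromosome 4 from 133679008 to 133756769) had 168, 181 and 159 CPM in the 3 ESC samples and 309, 317 and 291 CPM in the 3 EpiLC samples, then 315, 254 and 263 CPM on day 2, 247, 232 and 190.1 on day 4 and 230.0, 232 and 227 on day 6. Every EpiLC, D2PGCLC, D4PGCLC and D6PGCLC sample was above every ESC sample. The log2 fold change was 0.85 (SE 0.10, adjusted p = 5.61e-07) from ESCs to EpiLCs and 0.44 (SE 0.10, adjusted p = 0.000794) from ESCs to D6PGCLCs, and 0.46 (adjusted p = 0.00215) without D6PGCLC replicate 1. Between D2PGCLCs and D6PGCLCs it was -0.27 (SE 0.10, adjusted p = 0.0319), a change that lost the call in 5 of 12 alternatives. It was -0.27 (adjusted p = 0.0741) without that replicate, -0.29 (adjusted p = 0.0546) and -0.27 (adjusted p = 0.0789) without D6PGCLC replicates 2 and 3, -0.18 (adjusted p = 0.19) without D2PGCLC replicate 1 and -0.11 (adjusted p = 0.417) with library size only.

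*Arid1b* (ENSMUSG00000069729, chromosome 17 from 4994332 to 5347656) moved the other way in EpiLCs. It had 30.4, 35 and 29.6 CPM in the 3 ESC samples and 21.4, 19.96 and 17.9 CPM in the 3 EpiLC samples, then 65.5, 47.2 and 60.04 CPM on day 2, 66.1, 60.5 and 54.7 on day 4 and 46.3, 45.9 and 49.5 on day 6. EpiLC samples were the lowest of all, and every PGCLC sample was above every ESC sample. Tested across all genes, its log2 fold change was -0.68 (SE 0.12, adjusted p = 9.4e-05) from ESCs to EpiLCs, 1.54 (SE 0.12, adjusted p = 3.54e-09) from EpiLCs to D2PGCLCs and 0.58 (SE 0.12, adjusted p = 0.000364) from ESCs to D6PGCLCs, the last 0.61 (adjusted p = 0.00081) without D6PGCLC replicate 1.

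The DPF genes encode BAF45 subunits with paired PHD fingers that read acetylated histone tails. *Dpf1* (ENSMUSG00000030584, chromosome 7 from 29303951 to 29318243), the neuronal BAF45B, had 17.8, 15.4 and 18 CPM in the 3 ESC samples and 19.3, 17.3 and 21.7 CPM in the 3 EpiLC samples, then 11.8, 12.6 and 11.7 CPM on day 2, 11.3, 10.9 and 10.6 on day 4 and 6.04, 9.01 and 8.76 on day 6. All PGCLC samples were below all ESC and EpiLC samples, and D6PGCLC replicate 1 was the lowest. On the log2 scale, the change was -0.69 (SE 0.15, adjusted p = 0.000535) from EpiLCs to D2PGCLCs and -1.10 (SE 0.15, adjusted p = 4.43e-06) from ESCs to D6PGCLCs. Between D2PGCLCs and D6PGCLCs it was -0.60 (SE 0.15, adjusted p = 0.00376), and -0.43 (adjusted p = 0.0221) without D6PGCLC replicate 1. The neuronal sums given beside *Ss18l1* were also lower in PGCLCs than in ESCs. From D2PGCLCs to D6PGCLCs 6 of the 11 neuronal genes had a higher and 5 a lower mean. The part of neuronal cells in the *Dpf1* level was not tested.

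*Dpf3* (ENSMUSG00000021221, chromosome 12 from 83213745 to 83487716) encodes BAF45C, known from heart and muscle. It had 0.365, 1.01 and 0.603 CPM in the 3 ESC samples and 1.38, 1.78 and 1.17 CPM in the 3 EpiLC samples, then 0.521, 1.22 and 1.05 CPM on day 2, 3.03, 2.68 and 2.09 on day 4 and 2.71, 3.61 and 2.64 on day 6, from 10 to 23 counts in ESCs and 93 to 164 in D6PGCLCs. Every D4PGCLC and D6PGCLC sample was above every other sample, and the ESC and D2PGCLC samples overlapped. The log2 fold change was 1.69 (SE 0.36, adjusted p = 0.00133) from D2PGCLCs to D6PGCLCs and 2.20 (SE 0.38, adjusted p = 8.76e-05) from ESCs to D6PGCLCs, and without D6PGCLC replicate 1 it was 1.76 (adjusted p = 0.00171) and 2.28 (adjusted p = 0.000109). From day 2 to day 4 it was 1.49 (adjusted p = 0.0127). The rise in EpiLCs, 1.15 (SE 0.39, adjusted p = 0.0191), lost the call without ESC replicate 1 (0.85, adjusted p = 0.103), ESC replicate 3 (1.10, adjusted p = 0.0593) or EpiLC replicate 2 (0.98, adjusted p = 0.0743). The cardiac and muscle sums given beside *Smarcd3* were higher in EpiLCs and lower in D6PGCLCs than in ESCs. From D2PGCLCs to D6PGCLCs 5 of those 7 genes had a higher and 2 a lower mean. Their part in the *Dpf3* level was not tested. *Dpf2*, the widely expressed BAF45D, was the 1 tested member that passed the test in none of the 4 comparisons.

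*Bcl11a* and *Bcl11b* encode zinc finger proteins found with BAF in neural and lymphoid cells. *Bcl11a* (ENSMUSG00000000861, chromosome 11 from 24078056 to 24174123) had 0.547, 0.395 and 0.402 CPM in the 3 ESC samples and 18.6, 19.6 and 23.5 CPM in the 3 EpiLC samples, then 0.337, 0.466 and 0.87 CPM on day 2, 1.06, 1.15 and 0.716 on day 4 and 0, 0.573 and 0.397 on day 6. The 3 EpiLC samples, with 487 to 640 counts, stood far above all 12 others, among which the ESC samples had 9 to 15 counts. Tested across all genes, its log2 fold change was 5.50 (SE 0.49, adjusted p = 2.06e-08) from ESCs to EpiLCs and -5.18 (SE 0.47, adjusted p = 2.88e-08) from EpiLCs to D2PGCLCs. The neuronal sum given beside *Ss18l1* was lower in EpiLCs than in ESCs, but 8 of its 11 genes had a higher mean there, and from EpiLCs to D2PGCLCs 9 of the 11 had a lower one. Their part in the *Bcl11a* level was not tested. The 7 lymphoid and blood genes summed to 9.93, 9.91 and 9.25 CPM in ESCs, 2.91, 4.67 and 3.93 in EpiLCs and, on day 2, 3.74, 4.8 and 3.42, with *Cd3e* the highest in ESCs and EpiLCs and *Hbb-bt* at 0 in every sample. In EpiLCs 4 of the 7 had a higher and 2 a lower mean than in ESCs, and their part was not tested either.

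*Bcl11b* (ENSMUSG00000048251, chromosome 12 from 107910403 to 108003602) was low throughout, with 0.876, 0.395 and 0.905 CPM in the 3 ESC samples and 1.84, 2.37 and 2.24 CPM in the 3 EpiLC samples, then 0.919, 0.573 and 0.33 CPM on day 2, 0.606, 0.723 and 0.344 on day 4 and 0, 0.903 and 0.992 on day 6. EpiLC samples were the highest and did not overlap with the others. The log2 fold change from EpiLCs to D2PGCLCs was -1.82 (SE 0.71, adjusted p = 0.0385), and from ESCs to EpiLCs 1.55 (SE 0.71, adjusted p = 0.0736), not past the test. The second passed with DESeq2 (1.60, adjusted p = 0.0426), with no filter on low counts (1.54, adjusted p = 0.0108) and in a fit of the 2 groups alone (1.55, adjusted p = 0.00137), which makes 6 members past the cutoffs in that comparison, and over its 12 alternatives the adjusted p ran from 0.00137 to 0.21. The first lost its call in 6 of 12, among them those without any 1 of EpiLC replicates 1, 2 and 3 and D2PGCLC replicates 2 and 3, with log2 fold changes of -1.91, -1.73, -1.78, -1.77 and -1.51 and adjusted p-values of 0.0578, 0.0898, 0.0808, 0.0863 and 0.132.

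Promoter sequences from RefSeq are shown for *Bcl11a*, *Dpf3* and *Smarca2*. With *Smarcd3* these are the 4 genes that ranked first by the largest called change of each gene. *Smarca2*, at 1.822, was closely followed by *Bcl11b*, at -1.816. Only the stretch outside annotated exons is given. The stretches come from GRCm38.p6, at chr11:24080445-24080669 on the plus strand (inside the gene, 25 bases before the RefSeq start), chr12:83487737-83487986 on the minus strand (next to the start) and chr19:26604910-26605049 on the plus strand (110 bases before the start). Capitals mark the GC box GGGCGG and the CCAAT box CCAAT on either strand.
Bcl11a: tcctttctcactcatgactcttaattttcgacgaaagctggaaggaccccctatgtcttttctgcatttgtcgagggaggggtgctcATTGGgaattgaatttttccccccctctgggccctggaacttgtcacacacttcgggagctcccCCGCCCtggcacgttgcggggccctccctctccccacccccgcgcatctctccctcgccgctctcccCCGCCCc
Dpf3: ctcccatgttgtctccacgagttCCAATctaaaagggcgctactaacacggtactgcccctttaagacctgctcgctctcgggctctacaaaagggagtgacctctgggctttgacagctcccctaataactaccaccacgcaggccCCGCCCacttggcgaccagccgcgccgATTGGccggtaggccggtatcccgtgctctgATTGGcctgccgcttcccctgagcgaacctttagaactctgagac
Smarca2: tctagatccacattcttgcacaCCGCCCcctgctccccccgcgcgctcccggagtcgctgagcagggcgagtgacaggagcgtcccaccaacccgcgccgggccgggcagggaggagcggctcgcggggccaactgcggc

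PBAF carries ARID2 and PBRM1, a subunit with several bromodomains. *Arid2* (ENSMUSG00000033237, chromosome 15 from 96287518 to 96404992) had 82.7, 84.3 and 80.4 CPM in the 3 ESC samples and 166, 182 and 159 CPM in the 3 EpiLC samples, then 143, 130.3 and 131 CPM on day 2, 101, 90.4 and 77.1 on day 4 and 93.1, 92.9 and 86.8 on day 6. The EpiLC samples were the highest, the D2PGCLC samples came next, and both were above all ESC samples. On the log2 scale, the change was 1.03 (SE 0.09, adjusted p = 1.58e-08) from ESCs to EpiLCs, -0.33 (SE 0.09, adjusted p = 0.00439) from EpiLCs to D2PGCLCs and -0.57 (SE 0.09, adjusted p = 7.66e-05) from D2PGCLCs to D6PGCLCs. Without D6PGCLC replicate 1, the last was -0.58 (adjusted p = 0.000381).

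*Pbrm1* (ENSMUSG00000042323, chromosome 14 from 31019138 to 31121592) had 148, 159 and 162 CPM in the 3 ESC samples and 193, 215 and 202 CPM in the 3 EpiLC samples, then 145, 133 and 124 CPM on day 2, 131, 103 and 95.7 on day 4 and 109.6, 126 and 123 on day 6. EpiLC samples were the highest, and every D6PGCLC sample was below every ESC sample. The log2 fold change was 0.38 (SE 0.10, adjusted p = 0.00388) from ESCs to EpiLCs, -0.60 (SE 0.10, adjusted p = 6.1e-05) from EpiLCs to D2PGCLCs and -0.39 (SE 0.10, adjusted p = 0.00344) from ESCs to D6PGCLCs, the last -0.31 (adjusted p = 0.0293) without D6PGCLC replicate 1. *Brd7* and *Phf10*, which encode the other PBAF subunits, stayed below the fold cutoff in the 4 comparisons. From ESCs to EpiLCs *Brd7* was lower, with a log2 fold change of -0.25 (SE 0.07, adjusted p = 0.0056). *Phf10* had 0.01 there (SE 0.14, adjusted p = 0.959), not past the test.

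Non-canonical BAF is marked by BRD9, a bromodomain protein, and by BICRA or its paralogue BICRAL. *Brd9* (ENSMUSG00000057649, chromosome 13 from 73937811 to 73960895) had 48.6, 52.7 and 49.7 CPM in the 3 ESC samples and 31.9, 30.7 and 27.4 CPM in the 3 EpiLC samples, then 44.7, 40.8 and 45 CPM on day 2, 42.2, 37.8 and 48.8 on day 4 and 50.9, 44 and 44.4 on day 6. EpiLC samples were the lowest, and the ESC and D6PGCLC samples overlapped. Tested across all genes, its log2 fold change was -0.75 (SE 0.10, adjusted p = 5.65e-06) from ESCs to EpiLCs and 0.54 (SE 0.10, adjusted p = 0.000213) from EpiLCs to D2PGCLCs.

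*Bicral* (ENSMUSG00000036568, chromosome 17 from 46798120 to 46858482) had 86.8, 83.9 and 76.2 CPM in the 3 ESC samples and 39.1, 41.9 and 38 CPM in the 3 EpiLC samples, then 73.3, 74.1 and 71.3 CPM on day 2, 63.7, 74.7 and 55.6 on day 4 and 57.4, 63.1 and 49.7 on day 6. The EpiLC samples were the lowest of all, and every D6PGCLC sample was below every ESC sample. On the log2 scale, the change was -1.05 (SE 0.11, adjusted p = 1.14e-07) from ESCs to EpiLCs, 0.88 (SE 0.11, adjusted p = 1.17e-06) from EpiLCs to D2PGCLCs and -0.54 (SE 0.10, adjusted p = 0.000257) from ESCs to D6PGCLCs, the last -0.53 (adjusted p = 0.00136) without D6PGCLC replicate 1. Between D2PGCLCs and D6PGCLCs it was -0.36 (SE 0.10, adjusted p = 0.0102), and -0.36 (adjusted p = 0.0259) without that replicate. This change lost the call in 2 of 12 alternatives. It was -0.20 (adjusted p = 0.133) with library size only and -0.28 (adjusted p = 0.0637) without D6PGCLC replicate 3. *Bicra* (ENSMUSG00000070808, chromosome 7 from 15970672 to 16047921) had 13.7, 14.9 and 12.6 CPM in the 3 ESC samples and 12.9, 10.4 and 9.21 CPM in the 3 EpiLC samples, then 17.1, 14.9 and 12.8 CPM on day 2, 14.8, 15.6 and 13.2 on day 4 and 16.1, 14.2 and 14 on day 6. Its groups overlapped except that EpiLCs lay below D4PGCLCs and D6PGCLCs. From EpiLCs to D2PGCLCs the log2 fold change was 0.47 (SE 0.15, adjusted p = 0.012), and it lost the call without EpiLC replicate 3 (0.37, adjusted p = 0.0659) or D2PGCLC replicate 1 (0.36, adjusted p = 0.0744).

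**Figure D3:**
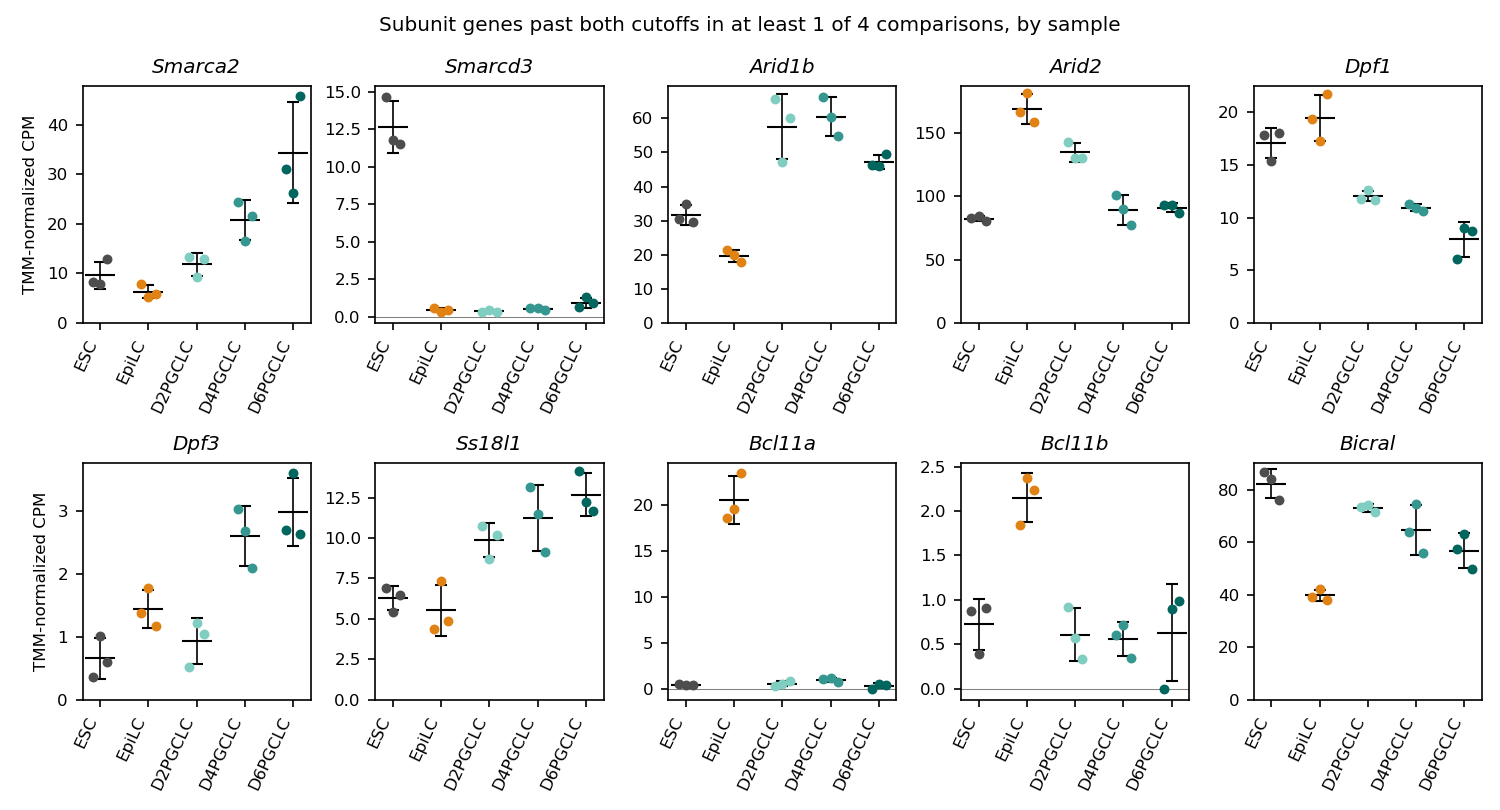
The TMM-normalized CPM of the 10 subunit genes past both cutoffs in at least 1 of 4 comparisons is drawn by group, with a point per sample and a bar for the mean and SD of 3 samples. *Bcl11a* is at 20.6 ± 2.57 CPM in EpiLCs, *Smarcd3* at 12.7 ± 1.75 in ESCs and *Smarca2* at 34.4 ± 10.2 in D6PGCLCs.

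Paralogues can take the same place in a complex, although BAF155 and BAF170 pair in the scaffold. Each paralogue was also given as its share of the family's summed CPM per kb in a sample. These are shares of messenger RNA, not of protein. *Smarca2* held 1.15, 1.1 and 1.72% of the *Smarca4* and *Smarca2* sum in ESCs and 0.945, 0.612 and 0.706% in EpiLCs, then 1.8, 1.33 and 1.84% on day 2, 3.88, 2.41 and 3.6% on day 4 and 4.52, 4.05 and 7.49% on day 6. *Smarca4* held most of the sum in every sample, and the ESC and D6PGCLC shares did not overlap. An exact permutation test of 3 against 3 samples cannot give a p under 0.1, so the shares are given as descriptions. With no division by exon length, the difference between D6PGCLCs and ESCs was 8.16 percentage points for *Smarca2*, against 4.03 with it.

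Within the BAF60 family, *Smarcd1* had a mean share of 50.4% in ESCs, 63% in EpiLCs, 41.3% on day 2, 39.4% on day 4 and 39.8% on day 6, and *Smarcd2* had 45.7%, 36.9%, 58.6%, 60.5% and 59.9%. *Smarcd2* was the more abundant per kb in every PGCLC sample and the less abundant in every EpiLC sample, a pair singled out after its values were seen. *Smarcd3* held 4.38, 3.67 and 3.76% in ESCs and 0.154, 0.0915 and 0.137% in EpiLCs, then 0.0755, 0.105 and 0.0793% on day 2, 0.17, 0.163 and 0.119% on day 4 and 0.191, 0.401 and 0.306% on day 6. The share of *Arid1b* in the ARID1 pair was 14.2, 15 and 14.5% in ESCs, 5.93, 5.43 and 5.29% in EpiLCs, then 15.9, 14.5 and 17.2% on day 2, 19.6, 19.2 and 20.8% on day 4 and 15.5, 15.3 and 16.6% on day 6. The day 2 samples overlapped with ESCs.

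Of the sum of *Dpf1*, *Dpf2* and *Dpf3* alone, *Dpf2* held most. *Dpf1* held 15.8, 13.9 and 16.2% in ESCs and 18, 16.8 and 19.3% in EpiLCs, then 11.1, 11.4 and 10.6% on day 2, 10.2, 9 and 9.24% on day 4 and 5.51, 8.88 and 8.51% on day 6. For *Dpf3* the share was 0.413, 1.16 and 0.693% in ESCs and 1.63, 2.19 and 1.33% in EpiLCs, then 0.627, 1.41 and 1.21% on day 2, 3.48, 2.81 and 2.31% on day 4 and 3.14, 4.53 and 3.26% on day 6. *Ss18l1* held 12.5, 9.39 and 11.9% of its pair with *Ss18* in ESCs and 6.21, 9.22 and 6.99% in EpiLCs, then 9.47, 7.83 and 8.25% on day 2, 12.3, 11.8 and 9.3% on day 4 and 17.4, 14.6 and 15.4% on day 6. The difference between D6PGCLCs and ESCs, 4.53 percentage points, was 2.43 with no division by exon length. For *Smarcc2* in its pair with *Smarcc1* the share was 14.6, 14.3 and 15.2% in ESCs and 8.98, 7.29 and 8.53% in EpiLCs, then 9.43, 8.64 and 8.41% on day 2, 11.8, 11.9 and 13.3% on day 4 and 13, 14.4 and 15.6% on day 6. The ESC and D6PGCLC samples overlapped, and the EpiLC and D2PGCLC samples were all below them.

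The genes that define the assemblies were compared in the same way. *Arid1a* and *Arid1b* of canonical BAF together held 43.5, 45.8 and 44.5% of the summed CPM per kb of the 5 defining genes in ESCs, 55.6, 54.5 and 55.5% in EpiLCs, then 55.5, 51 and 53.4% on day 2, 56.6, 54 and 55.2% on day 4 and 55.4, 54.9 and 58.1% on day 6. *Bicra* and *Bicral* of non-canonical BAF held 36.8, 34.9 and 34.9% in ESCs, 14.2, 13.9 and 13.9% in EpiLCs, then 21.8, 25 and 23.2% on day 2, 23.6, 27.8 and 25.8% on day 4 and 24.3, 25.3 and 22.1% on day 6. *Arid2* of PBAF held 19.7, 19.4 and 20.6% in ESCs, 30.1, 31.6 and 30.6% in EpiLCs, then 22.6, 23.9 and 23.4% on day 2, 19.9, 18.2 and 19% on day 4 and 20.3, 19.9 and 19.8% on day 6. EpiLC samples had the lowest joint share of *Bicra* and *Bicral* and the highest share of *Arid2* of all samples. The *Arid2* shares of ESCs and D6PGCLCs overlapped. The share of *Arid2* does not cover the other PBAF genes.

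**Figure D4:**
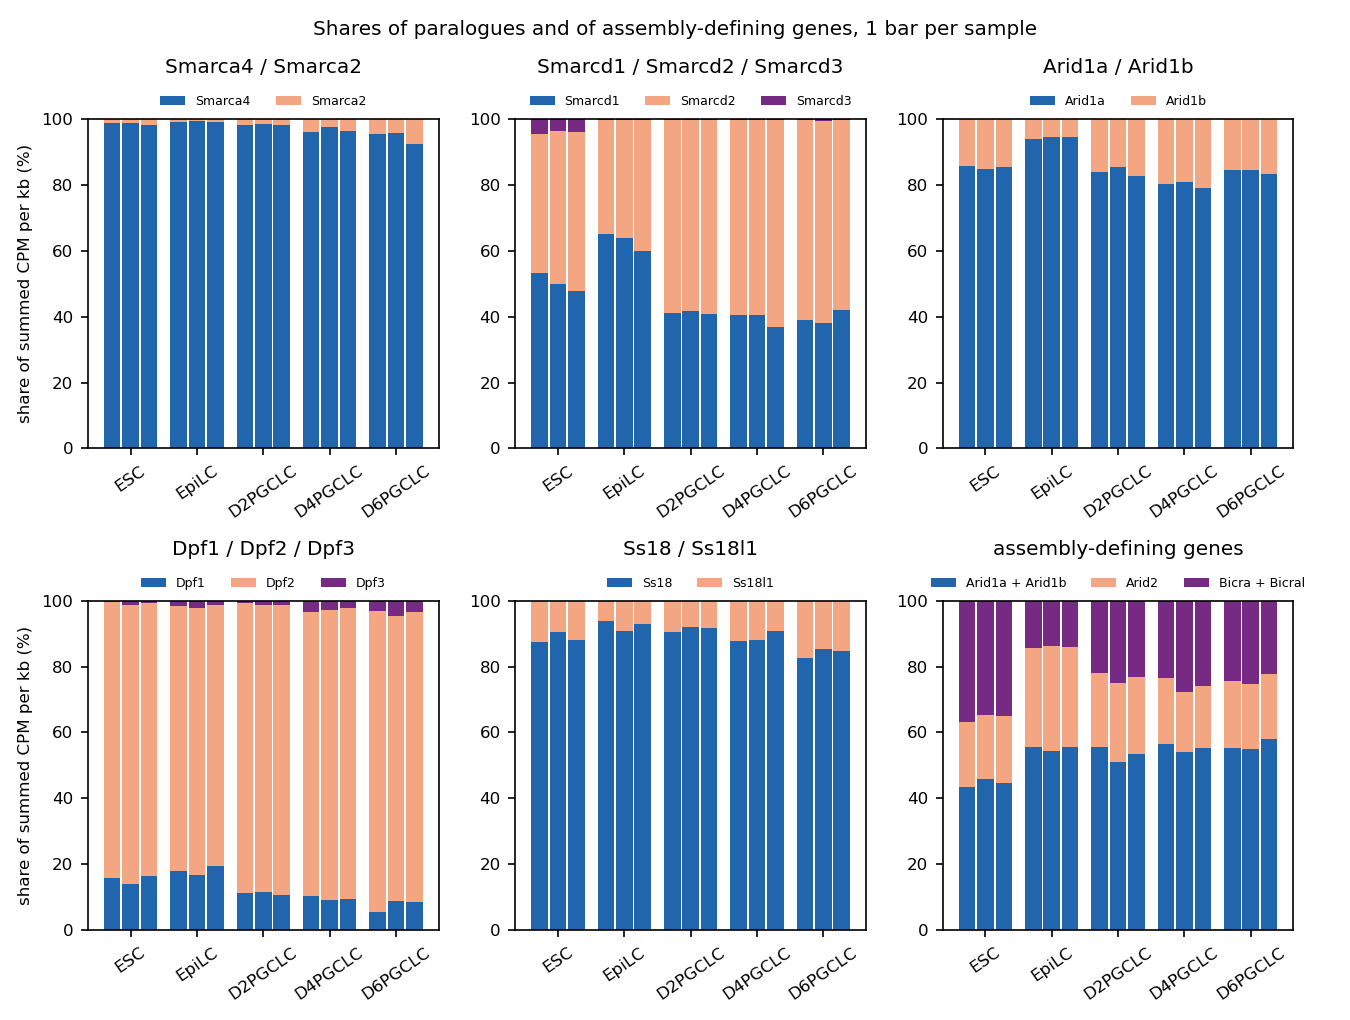
Stacked bars give, for each sample, the percent of the summed CPM per kb held by each paralogue of 5 families and by the genes that define the 3 assemblies. The *Smarcd2* bar grows from a mean of 36.9% in EpiLCs to 58.6% in D2PGCLCs.

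Lists of 58 other remodeller genes were counted in the same way as the BAF genes. From ESCs to EpiLCs 23 of the 58 were higher (26.3% of all genes) and 9 lower (26.2%), from EpiLCs to D2PGCLCs 20 (27.2%) and 19 (26%), from D2PGCLCs to D6PGCLCs 4 (19.5%) and 20 (18.2%), and from ESCs to D6PGCLCs 14 (27.7%) and 16 (26%), each beside the percent of all genes. Past the cutoffs were 9, 8, 1 and 6, against 26.2%, 25.4%, 13.6% and 26.2% of all genes. Leaving out D6PGCLC replicate 1 was an alternative for these lists chosen after the data were seen. From D2PGCLCs to D6PGCLCs, 2 were then higher (17.9% of all genes in that fit), 20 lower (14.4%) and 1 past the cutoffs (12.8%). From ESCs to D6PGCLCs the counts were 13 (27.2%), 15 (22.3%) and 6 (25.5%). The median log2 fold change of the 58 from D2PGCLCs to D6PGCLCs was -0.19, beside -0.25 for the BAF members. Past the cutoffs from ESCs to D6PGCLCs, with and without that replicate, were the NuRD genes *Mta3* (1.74, adjusted p = 4.54e-12) and *Mbd2* (1.44, adjusted p = 4.08e-08). *Ino80e* (-1.11, adjusted p = 2.9e-09), *Znhit1* (-1.08, adjusted p = 9.54e-07) and *Actr5* (1.07, adjusted p = 2.56e-06) were the genes of INO80, SRCAP and TIP60, and *Ercc6* (1.80, adjusted p = 3.11e-10) that of the other SNF2-type ATPases. Of the 11 ISWI genes, 3 were higher (27.7% of all genes) and 1 lower (26%) in that comparison. Without that replicate 3 were higher (27.2%) and 1 lower (22.3%).

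Of the 31 members, 24 have an entry in the RefSeq promoter table, and *Smarce1*, *Arid2*, *Actb*, *Ss18*, *Bcl7a*, *Bicra* and *Bicral* do not. In the 250 bases before the start, the GC box GGGCGG occurred on either strand in 19 of the 24 member windows (79.2%) and in 32.7% of all 32841 windows. CCAAT occurred in 5 member windows (20.8%, against 33.9% of all), TATAAA in 1 (4.17%, against 12.4%), CACGTG in 3 (12.5%, against 6.02%) and ATGCAAAT in 0 (against 1.6%). The member windows held a median of 23.5 CpG (4 to 51), against 6 in all windows. The set of all windows was not limited to the genes tested here, and no comparison with expressed genes alone was made. Some member windows lie in annotated exons, with all 250 bases exonic for *Pbrm1* and *Dpf2*. A match describes letters in the window and shows no binding.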

How the data were processed

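RNA-seq was analysed in 15 samples, 3 each of ESCs, EpiLCs and PGCLCs of days 2, 4 and 6. The authors purified RNA with TRIzol, used NEBNext Ultra II Directional reagents for the libraries and deposited a raw count per ENSEMBL gene. The submitters' processing notes name Trim Galore, FastQC and STAR with the mm10 genome. The counting tool, the annotation release and the use of strand in counting are not given in the sources used here.

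Counts of 55536 genes were matched to GENCODE M21 by gene identifier. edgeR 4.0.16 in R 4.3.3 fitted all 15 samples with 1 coefficient per group, after TMM normalization and filterByExpr with a minimum of 10 counts. Tests were edgeR's quasi-likelihood test with Benjamini-Hochberg adjustment over 18090 genes. The pipeline was run on simulated counts with 200 genes changed in D6PGCLCs. Far more genes were called in these data, so that run does not test the scaling between groups. Levels are CPM, divided by the exon union in kb where subunit genes are compared. Paralogue shares are descriptions, since an exact permutation test of 3 against 3 samples cannot give a p under 0.1.

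Values in every sample are given for members past both cutoffs (adjusted p under 0.05, log2 fold change over 1 in size) in any of the 4 comparisons, and for *Smarca4*, *Smarcb1*, *Arid1a*, *Arid2*, *Pbrm1*, *Bicra* and *Brd9* whatever their change. In each list of other remodellers at most 3 genes are named, those with the largest changes past the cutoffs from ESCs to D6PGCLCs. The members and lists were chosen with earlier results of these data known. The alternatives were DESeq2 1.42.0, its size factors in edgeR, library size only, a fit of the 2 groups compared alone, a block for the replicate number, testing without the filter, no division by exon length for the shares, and each sample left out in turn. Leaving out D6PGCLC replicate 1 for the lists of other remodellers was chosen after the data were seen. The floor of 3 counts covers counting error only.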

Additional observations from a re-analysis of the deposited data

How the results depend on the processing

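Of the counts of members under the alternatives, 139 stayed within 1.5 times the reported count and 5 did not, and of the log2 fold changes of named members 486 kept their direction and side of the threshold, 39 lost the call, 3 gained it (all *Bcl11b* from ESCs to EpiLCs) and 0 reversed. Members lower from ESCs to D6PGCLCs numbered 13 (26% of all genes). They numbered 8 with library size only (21% in that fit) and 8 with no filter on low counts (14.2%). The cause was not tested. Library size only moved the median log2 fold change of all genes to -0.11 in EpiLCs against ESCs, 0.048 in D2PGCLCs against EpiLCs, 0.16 in D6PGCLCs against D2PGCLCs and 0.11 in D6PGCLCs against ESCs.

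With each sample left out in turn, 6 to 11 members were lower from ESCs to EpiLCs (22.1% to 23% of all genes in those fits). Past the cutoffs were 3 to 5 (23.9% to 24.6% of all genes). The lowest counts were 6 lower without EpiLC replicate 3 and 3 past the cutoffs without EpiLC replicate 2. From ESCs to D6PGCLCs, 9 to 13 were lower (21.6% to 24.4% of all genes). Past the cutoffs were 3 to 5 (23.6% to 25.9%), with 3 without D6PGCLC replicate 1. Fewer samples were in these fits. Of the other remodellers, 2 were higher from D2PGCLCs to D6PGCLCs without D6PGCLC replicate 1 (17.9% of all genes), against 4 (19.5%). That alternative was chosen after the data were seen, and 5 other counts stayed within 1.5 times.

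The difference of the *Smarcc2* share between D6PGCLCs and ESCs, -0.309 percentage points, was 0.357 without D6PGCLC replicate 1 and lay between -0.937 and 0.357 with each sample left out. That of the *Arid2* share, 0.113, was -1.06 with no division by exon length, -0.131 without ESC replicate 2 and -0.0261 without D6PGCLC replicate 1, and lay between -0.131 and 0.458 with each sample left out. Both reported differences are smaller than the spread between replicates, and the cause was not tested.

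With the replicate number as a block, 9 members were higher from ESCs to EpiLCs (26.7% of all genes in that fit). There, 11 were lower (26.6%) and 5 past the cutoffs (26.1%). From ESCs to D6PGCLCs the block gave 8 higher (27.8%), 13 lower (26.4%) and 5 past the cutoffs (26%). With the block *Bcl11b* lost its call from EpiLCs to D2PGCLCs (adjusted p = 0.0516), at a log2 fold change of -1.79 against -1.82 without the block.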
